A study of Mus musculus with 9 samples.

Results

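Bone morphogenetic protein (BMP) signalling was examined through 10 genes, taken by name out of the 24421 genes of the count table: the ligand genes Bmp2, Bmp4 and Bmp7, the protease gene Bmp1, the receptor gene Bmpr2, the inhibitory SMAD gene Smad6, and the Id genes Id1, Id2, Id3 and Id4. All 10 were listed, and all 10 were among the 14513 genes with enough counts to be tested. All RNA was from the mouse embryonic stem (ES) cell line D3, kept feeder-free on gelatin with fetal bovine serum and ESGRO, a leukemia inhibitory factor product. There were 3 libraries each of cells that overexpress LAMP2A and were treated with 4 mM DM-αKG for 72 h (LAMP2A+DM-αKG), of cells that overexpress LAMP2A without that treatment (LAMP2A), and of cells stably carrying the pCDH control vector (VT). LAMP2A, a product of the Lamp2 gene in the lysosomal membrane, is the receptor of chaperone-mediated autophagy, and DM-αKG is the dimethyl ester of α-ketoglutarate, which enters cells. Vector cells given DM-αKG were not among the groups, the labels do not say whether a cell line was 1 clone or whether untreated cells received a vehicle, and they do not tie replicate libraries to separate cultures. The p-values therefore measure only the spread between these libraries, which may be technical.

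BMPs are secreted dimers that bring type I and type II serine/threonine kinase receptors together at the cell surface. The type I receptor then phosphorylates SMAD1, SMAD5 and SMAD9, which enter the nucleus with SMAD4, and the Id genes are among their best known direct targets. ID proteins are helix-loop-helix proteins without a DNA-binding region, and they hold E proteins and other basic helix-loop-helix (bHLH) factors away from DNA. In mouse ES cells BMP4 and the Id genes are known to help leukemia inhibitory factor sustain self-renewal. Later in the embryo BMP signals direct mesoderm, skin and other lineages. Despite its name, BMP1 is not a ligand of this kind but a secreted metalloprotease that matures collagens and cleaves the BMP antagonist chordin.

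The libraries held 23636074 to 32809875 counted reads. Lamp2 stood at 97.3 ± 1.90 CPM (CPM scales counts to the library total, here with TMM factors) in LAMP2A+DM-αKG, 404 ± 3.07 CPM in LAMP2A and 58.1 ± 1.66 CPM in VT (SD, n = 3 each), so the libraries given DM-αKG also carried less Lamp2 RNA than the untreated LAMP2A libraries. The ES cell markers Pou5f1, Sox2, Nanog, Esrrb, Zfp42 and Klf4 were counted in every group and summed to 4290.4 to 4328 CPM in LAMP2A+DM-αKG, 1282 to 1284 CPM in LAMP2A and 5147 to 5373 CPM in VT. Most genes differed between groups. Of all genes tested, 85.1% passed an edgeR adjusted p of 0.05 between LAMP2A and VT, 83.2% between LAMP2A+DM-αKG and LAMP2A, and 58.7% between LAMP2A+DM-αKG and VT. Replicate libraries lay close together, with a common biological coefficient of variation of 2.74%. Passing the test therefore sets a gene apart from few others, and the sizes of the changes are read against those of all genes.

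Upstream sequence was held for 6 of the 10 genes in the RefSeq table (build GRCm38.p6, the assembly also called mm10). It is shown for Smad6, which changed strongly, and for Id4 and Bmp4, which changed little, so that the letters before a responsive and a weakly responsive start can be set side by side. Each run is the 250 bases before the annotated start, read 5′ to 3′ on the gene's strand, with matches in capitals to GGCGCC, known from the BMP response element of Id1, or to GGAGCC, a close relative of it, on either strand (GGCTCC is GGAGCC read on the other strand).
Smad6, chr9:64022060-64022309, minus strand: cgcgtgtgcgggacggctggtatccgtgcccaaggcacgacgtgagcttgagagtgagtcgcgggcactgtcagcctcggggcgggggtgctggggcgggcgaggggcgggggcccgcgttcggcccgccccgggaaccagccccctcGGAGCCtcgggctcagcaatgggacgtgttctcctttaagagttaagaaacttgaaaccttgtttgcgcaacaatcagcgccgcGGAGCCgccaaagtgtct
Id4, chr13:48260866-48261115, plus strand: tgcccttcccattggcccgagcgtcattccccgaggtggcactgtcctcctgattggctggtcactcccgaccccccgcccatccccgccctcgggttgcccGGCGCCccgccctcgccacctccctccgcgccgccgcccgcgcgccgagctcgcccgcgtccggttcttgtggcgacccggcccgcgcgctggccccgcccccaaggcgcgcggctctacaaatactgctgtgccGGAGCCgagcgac
Bmp4, chr14:46390670-46390919, minus strand: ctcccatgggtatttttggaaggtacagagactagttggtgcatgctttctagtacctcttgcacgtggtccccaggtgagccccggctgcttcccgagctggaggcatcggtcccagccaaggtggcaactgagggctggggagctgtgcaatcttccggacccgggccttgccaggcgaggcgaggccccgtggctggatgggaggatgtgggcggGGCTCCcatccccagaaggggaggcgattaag

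The Smad6 window held GGAGCC at 2 places, starting 102 and 18 bases before the start, and no GGCGCC. The Id4 window held GGCGCC once, 148 bases before the start, and GGAGCC once, 13 bases before it. The Bmp4 window held GGAGCC once, 32 bases before the start, and no GGCGCC. The windows of Id2, Id3 and Bmpr2 lie partly or wholly in exons of the GENCODE M21 annotation. Id2 had 1 match to GGCGCC and 1 to GGAGCC, Id3 had 1 to GGAGCC and Bmpr2 had 1 to GGCGCC. In the 3 windows shown, no match to one motif overlapped a match to the other. Of 32851 windows of the same length in the table, 9.59% held GGCGCC and 26% held GGAGCC, and their median GC content was 52.4%, against 66.8% in the Smad6 window, 75.6% in that of Id4 and 63.2% in that of Bmp4. Matches were thus present before Smad6, Id4 and Bmp4, though not to the same motifs, and a match is a description of these letters only. Whether matches bear on the RNA responses was not tested.

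The first comparison asked what LAMP2A overexpression changed. Of the 10 genes, 9 were higher in LAMP2A than in VT at an edgeR adjusted p under 0.05, where 43% of all genes tested were higher, and none was lower, where 42.1% of all genes were. The change was at least 2-fold for 8 of them (19.8% of all genes rose that much), and at least 8-fold for 4, Bmp2, Id2, Bmp1 and Id3 (6.37% of all genes). The median log2 fold change was 2.30 over the 10 genes, which include Bmp2, counted almost only in LAMP2A, and 0.01 over all genes tested. In the second comparison, which asked what DM-αKG changed in LAMP2A cells, all 10 genes were lower in LAMP2A+DM-αKG than in LAMP2A, where 42.1% of all genes were lower, and none was higher (41.1% of all genes). The fall was at least 2-fold for 7 (17.6% of all genes) and at least 8-fold for the same 4 genes (5.54% of all genes), with a median log2 fold change of -2.04 against 0.00 over all genes. The LAMP2A libraries entered both comparisons, so the opposite signs are not independent of each other. Because the 10 genes were chosen with earlier results of these data known, the shares of all genes give scale and are not a test. Bmp2, which passed the filter on low counts only through LAMP2A, is also in the counts of both comparisons.

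**Figure D1:**
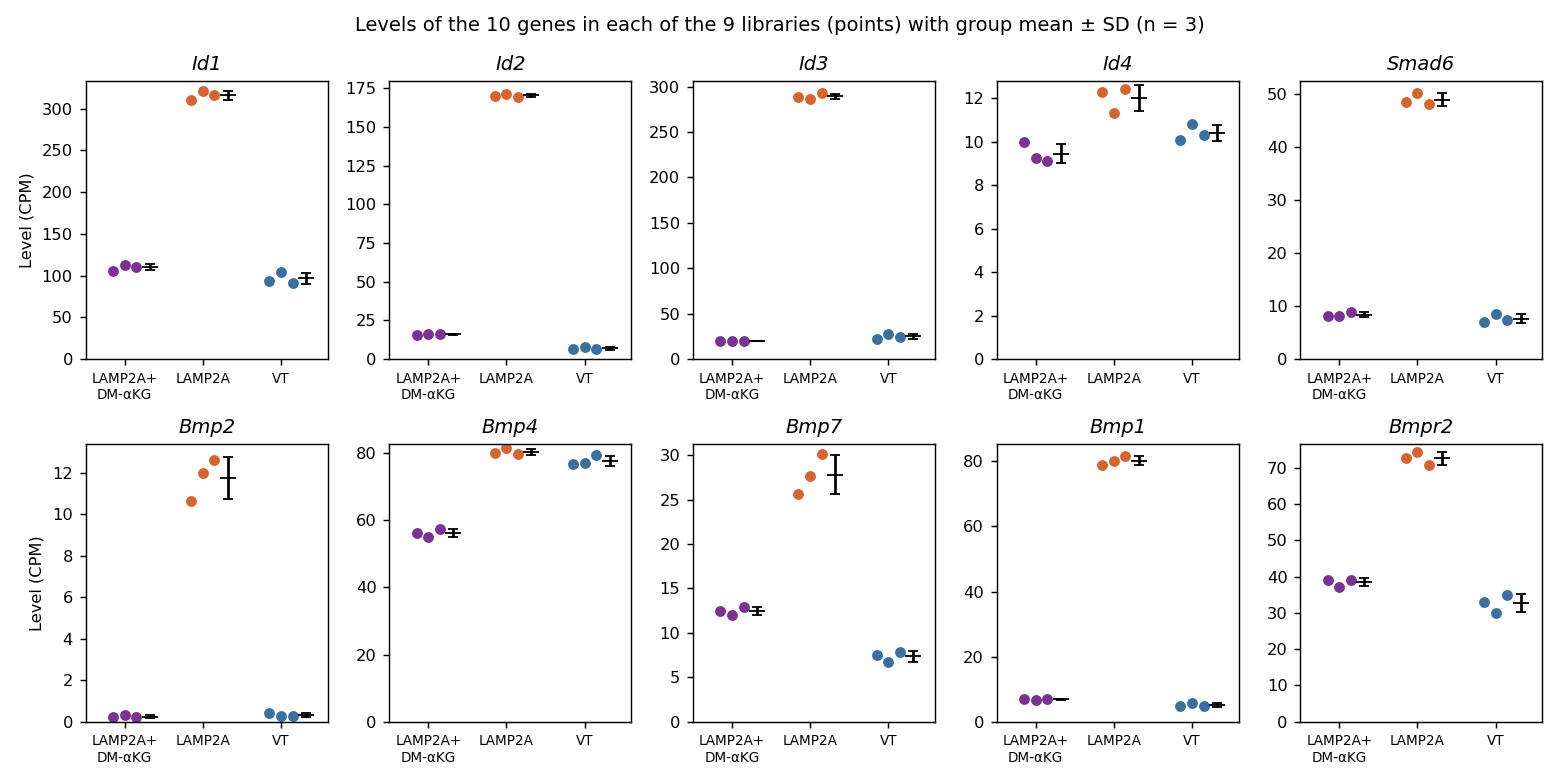
Level of each gene in CPM (vertical axis, from 0) in the 3 libraries of LAMP2A+DM-αKG, LAMP2A and VT (points), with the group mean and SD beside them. LAMP2A libraries are the highest in all 10 panels; in the Bmp4 panel the LAMP2A libraries, at 79.7 to 81.4 CPM, lie just above the VT libraries, at 76.6 to 79.3 CPM, and in the Bmp2 panel the other groups lie close to 0.

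Of Bmp2, Bmp4 and Bmp7, Bmp2 had the largest fold between LAMP2A and either other group. Bmp2 (mm10 chromosome 2, 133552159–133562885) encodes a ligand that binds the type I receptors BMPR1A and BMPR1B. It stood at 0.210, 0.309 and 0.233 CPM in the 3 LAMP2A+DM-αKG libraries, 10.6, 12.0 and 12.6 CPM in the LAMP2A libraries and 0.411, 0.295 and 0.260 CPM in the VT libraries. Only the LAMP2A libraries were high, and Bmp2 passed the filter on low counts only through them, as 6.14% of the genes tested did, so a difference from LAMP2A was bound to appear. The libraries of LAMP2A+DM-αKG and VT overlapped. These levels rest on 20 counts over the 3 LAMP2A+DM-αKG libraries, 1075 over the LAMP2A libraries and 25 over the VT libraries. The ratio of LAMP2A to VT was 36.6, with a 95% counting interval of 24.7 to 56.9 that covers counting error only (edgeR log2 fold change 5.18, adjusted p = 1.4e-25), and LAMP2A+DM-αKG had 0.0215 of the LAMP2A level (interval 0.0131 to 0.0333; edgeR log2 fold change -5.52, adjusted p = 8.37e-26). Between LAMP2A+DM-αKG and VT the ratio was 0.786 with an interval of 0.414 to 1.47 (edgeR adjusted p = 0.504), so at this depth no difference was detectable and one within that interval could not be seen.

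Bmp4 (chromosome 14, 46383520–46390669), the ligand gene known to act in ES cell self-renewal, behaved differently. Its level was 56.1, 55.1 and 57.4 CPM in LAMP2A+DM-αKG, 79.96, 81.4 and 79.7 CPM in LAMP2A, and 76.6, 76.9 and 79.3 CPM in VT. The LAMP2A+DM-αKG libraries were the low ones, and the LAMP2A and VT groups were nearly level. LAMP2A differed from VT by a log2 fold change of 0.05 (SE 0.034), which did not pass (edgeR adjusted p = 0.167), and 94.6% of the genes tested had a larger change in absolute log2 fold. It passed when genes whose mean was under 5 CPM were left out (log2 fold change 0.11, edgeR adjusted p = 0.00433). Against LAMP2A it fell 1.43-fold with DM-αKG (log2 fold change -0.52, SE 0.035, edgeR adjusted p = 1.69e-15), and against VT LAMP2A+DM-αKG was 1.38-fold lower (log2 fold change -0.47, edgeR adjusted p = 2.85e-13). Among the 7 genes of the 10 that passed between LAMP2A+DM-αKG and VT, Bmp4 and Id3 were the lower ones.

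Bmp7 (chromosome 2, 172868012–172940321) encodes a ligand of another subgroup that can pair with BMP2 or BMP4. It was counted at 12.5, 11.97 and 12.9 CPM in LAMP2A+DM-αKG, 25.7, 27.6 and 30.1 CPM in LAMP2A, and 7.49, 6.71 and 7.84 CPM in VT. The 3 groups did not overlap, with LAMP2A+DM-αKG between the other groups. Bmp7 rose 3.77-fold in LAMP2A over VT (log2 fold change 1.91, SE 0.071, edgeR adjusted p = 2.53e-23) and fell 2.23-fold with DM-αKG (log2 fold change -1.16, SE 0.063, edgeR adjusted p = 2.99e-18). In LAMP2A+DM-αKG it stayed 1.69-fold above VT (log2 fold change 0.76, edgeR adjusted p = 1.65e-09).

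Levels of different genes were compared per kb of exon, with exon lengths from GENCODE M21, which may differ from the annotation the authors counted on. On that scale Bmp4 led Bmp2 and Bmp7 in every library, and other ligand genes were not put on it. Of the summed CPM per kb of Bmp2, Bmp4 and Bmp7, Bmp4 made up 88.8 ± 0.111% in LAMP2A+DM-αKG, 77.8 ± 1.45% in LAMP2A and 94.7 ± 0.335% in VT (SD, n = 3 each). Bmp7 held 11.0 ± 0.164% in LAMP2A+DM-αKG, 15.0 ± 0.975% in LAMP2A and 5.01 ± 0.319% in VT. Bmp2 held 0.251 ± 0.0561% in LAMP2A+DM-αKG, 7.18 ± 0.492% in LAMP2A and 0.249 ± 0.0644% in VT. In LAMP2A Bmp2 stood at 3.31 ± 0.285 CPM per kb, below Bmp7 at 6.92 ± 0.555 and Bmp4 at 35.8 ± 0.408 CPM per kb.

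Bmp1 (chromosome 14, 70474558–70520234), the metalloprotease gene, stood at 7.07, 6.72 and 7.03 CPM in LAMP2A+DM-αKG, 78.7, 80.2 and 81.6 CPM in LAMP2A, and 4.94, 5.83 and 4.72 CPM in VT. The LAMP2A libraries lay far above all others, and the LAMP2A+DM-αKG libraries lay above those of VT. Bmp1 rose 15.5-fold in LAMP2A over VT (log2 fold change 3.95, SE 0.059, edgeR adjusted p = 3.65e-35), and 4.43% of the genes tested had a larger absolute change. With DM-αKG it fell 11.6-fold (log2 fold change -3.53, SE 0.056, edgeR adjusted p = 2.0e-34) and remained 1.34-fold above VT (log2 fold change 0.42, SE 0.093, edgeR adjusted p = 2.29e-04).

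Bmpr2 (chromosome 1, 59763400–59879014), the type II receptor gene for BMPs, had the smallest change of the genes that passed 2-fold in LAMP2A over VT. Its level was 38.97, 37.2 and 39.2 CPM in LAMP2A+DM-αKG, 72.8, 74.3 and 70.8 CPM in LAMP2A, and 33.0, 29.95 and 35.0 CPM in VT. All 3 groups were apart, although the LAMP2A+DM-αKG and VT libraries came within a few CPM of each other. The log2 fold change was 1.15 (SE 0.044, edgeR adjusted p = 7.93e-23) in LAMP2A over VT and -0.92 (SE 0.043, edgeR adjusted p = 3.27e-20) in LAMP2A+DM-αKG over LAMP2A. In LAMP2A+DM-αKG Bmpr2 was 1.18-fold above VT (edgeR adjusted p = 1.17e-04).

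Smad6 (chromosome 9, 63953076–64022059) encodes an inhibitory SMAD, itself induced by BMP signals, that blocks the type I receptors and SMAD1. It was counted at 8.16, 8.07 and 8.90 CPM in LAMP2A+DM-αKG, 48.4, 50.2 and 48.0 CPM in LAMP2A, and 6.99, 8.56 and 7.28 CPM in VT. Again the LAMP2A libraries alone were high, and LAMP2A+DM-αKG overlapped with VT. Smad6 rose 6.41-fold in LAMP2A over VT (log2 fold change 2.68, SE 0.060, edgeR adjusted p = 8.44e-30) and fell 5.83-fold with DM-αKG (log2 fold change -2.54, SE 0.059, edgeR adjusted p = 2.23e-29). Between LAMP2A+DM-αKG and VT the log2 fold change was 0.14 (SE 0.085, edgeR adjusted p = 0.172). That difference passed without VT replicate 2, the highest VT library (log2 fold change 0.23, edgeR adjusted p = 0.0284).

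The Id genes did not move alike. Id1 (chromosome 2, 152736251–152737410) had 106, 113 and 110.5 CPM in LAMP2A+DM-αKG, 310.3, 322 and 316 CPM in LAMP2A, and 93.7, 104 and 91.6 CPM in VT. It was already well counted in VT, and the groups did not overlap. The log2 fold change was 1.71 (SE 0.037, edgeR adjusted p = 5.14e-30) in LAMP2A over VT, a 3.27-fold rise, and -1.53 (SE 0.036, edgeR adjusted p = 1.11e-28) with DM-αKG. In LAMP2A+DM-αKG it was 1.13-fold above VT (log2 fold change 0.18, edgeR adjusted p = 1.5e-04).

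Id2 (chromosome 12, 25093799–25097140) had the largest fold of the Id genes between LAMP2A and VT. Its level was 15.7, 16.4 and 15.9 CPM in LAMP2A+DM-αKG, 170.3, 171 and 169 CPM in LAMP2A, and 6.17, 7.64 and 6.65 CPM in VT. The 3 groups were well apart, and LAMP2A+DM-αKG lay above VT in every library. Id2 rose by a log2 fold change of 4.64 (SE 0.050, edgeR adjusted p = 2.57e-39) in LAMP2A over VT and fell 10.7-fold with DM-αKG (log2 fold change -3.41, SE 0.043, edgeR adjusted p = 2.3e-37). It was the single gene of the 10 that remained at least 2-fold different between LAMP2A+DM-αKG and VT (2.34-fold higher, log2 fold change 1.22, SE 0.071, edgeR adjusted p = 1.92e-16), where 6.55% of all genes tested differed that much.

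Id3 (chromosome 4, 136143497–136145755) went past VT in the other direction. It stood at 19.5, 20.2 and 19.8 CPM in LAMP2A+DM-αKG, 289, 287 and 293 CPM in LAMP2A, and 22.5, 28.0 and 24.2 CPM in VT. The LAMP2A+DM-αKG libraries were the lowest of the 9. Id3 rose by a log2 fold change of 3.54 (SE 0.044, edgeR adjusted p = 6.46e-37) in LAMP2A over VT and fell by 3.87 on the log2 scale with DM-αKG (SE 0.046, edgeR adjusted p = 1.43e-37). Against VT, LAMP2A+DM-αKG was 1.26-fold lower (log2 fold change -0.33, SE 0.059, edgeR adjusted p = 1.24e-05).

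Id4 (chromosome 13, 48261228–48266026) moved least of the Id genes. It had 9.97, 9.27 and 9.13 CPM in LAMP2A+DM-αKG, 12.3, 11.3 and 12.4 CPM in LAMP2A, and 10.1, 10.8 and 10.3 CPM in VT. The LAMP2A libraries were slightly above the rest, with no overlap. Id4 was 1.15-fold higher in LAMP2A than in VT (log2 fold change 0.20, SE 0.069, edgeR adjusted p = 0.00708) and 1.27-fold lower in LAMP2A+DM-αKG than in LAMP2A (log2 fold change -0.35, SE 0.070, edgeR adjusted p = 3.07e-05). A larger absolute change than that of Id4 in LAMP2A over VT was found for 79.2% of the genes tested. LAMP2A+DM-αKG and VT did not differ past the threshold (log2 fold change -0.15, SE 0.075, edgeR adjusted p = 0.0937). A gene on the opposite strand, A330033J07Rik, overlaps Id4, and Gm15217 overlaps Bmp4 in the same way, but each had at most 3 counts over the 3 libraries of any group.

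Because Id2 and Id3 changed more than Id1 and Id4, the make-up of the family differed between groups. Per kb of exon, Id1 held 82.5 ± 0.359% of the summed Id level in LAMP2A+DM-αKG, 53.7 ± 0.516% in LAMP2A and 81.1 ± 0.801% in VT (SD, n = 3 each). Id3 held 9.66 ± 0.132% in LAMP2A+DM-αKG, 31.9 ± 0.452% in LAMP2A and 13.5 ± 0.697% in VT. Id2 held 5.73 ± 0.0742% in LAMP2A+DM-αKG, 13.8 ± 0.120% in LAMP2A and 2.72 ± 0.133% in VT. The order of levels per kb was Id1, Id3, Id2 and Id4 in LAMP2A+DM-αKG and in LAMP2A. In VT the last pair was level, with Id2 at 2.53 to 3.13 and Id4 at 2.62 to 2.81 CPM per kb. All 4 Id genes were highest in LAMP2A, at 272 ± 4.85 CPM per kb for Id1, 162 ± 1.60 for Id3, 69.9 ± 0.411 for Id2 and 3.12 ± 0.159 for Id4.

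**Figure D2:**
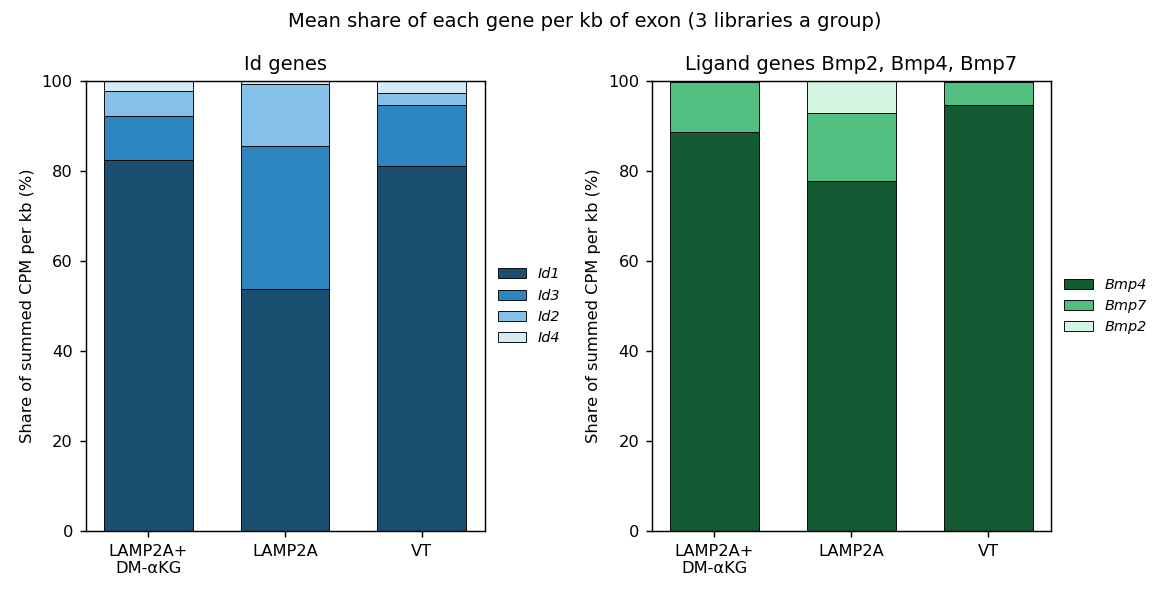
Share in percent of the summed CPM per kb of exon held by each Id gene (left) and by each of the ligand genes Bmp2, Bmp4 and Bmp7 (right), as means of 3 libraries in LAMP2A+DM-αKG, LAMP2A and VT. The Id1 segment is 53.7% in LAMP2A against 81.1% in VT, and the Bmp4 segment is 77.8% in LAMP2A against 94.7% in VT.

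The third comparison set LAMP2A+DM-αKG against VT. It shares libraries with both others and gives how far each gene lay from the vector level after DM-αKG. Of the 10 genes, 7 passed (58.7% of all genes tested did), 5 of them higher (29.3% of all genes) and 2 lower (29.3% of all genes). The higher ones were Id1, Id2, Bmp1, Bmp7 and Bmpr2, and the lower ones Id3 and Bmp4. The share that passed was near that of all genes, and the median log2 fold change was 0.16. Groups did not overlap for 8 of the 10 genes, as for 61.1% of all genes. In both comparisons with LAMP2A all 10 genes were free of overlap, as were 85% of all genes between LAMP2A and VT and 85.5% between LAMP2A+DM-αKG and LAMP2A.

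**Figure D3:**
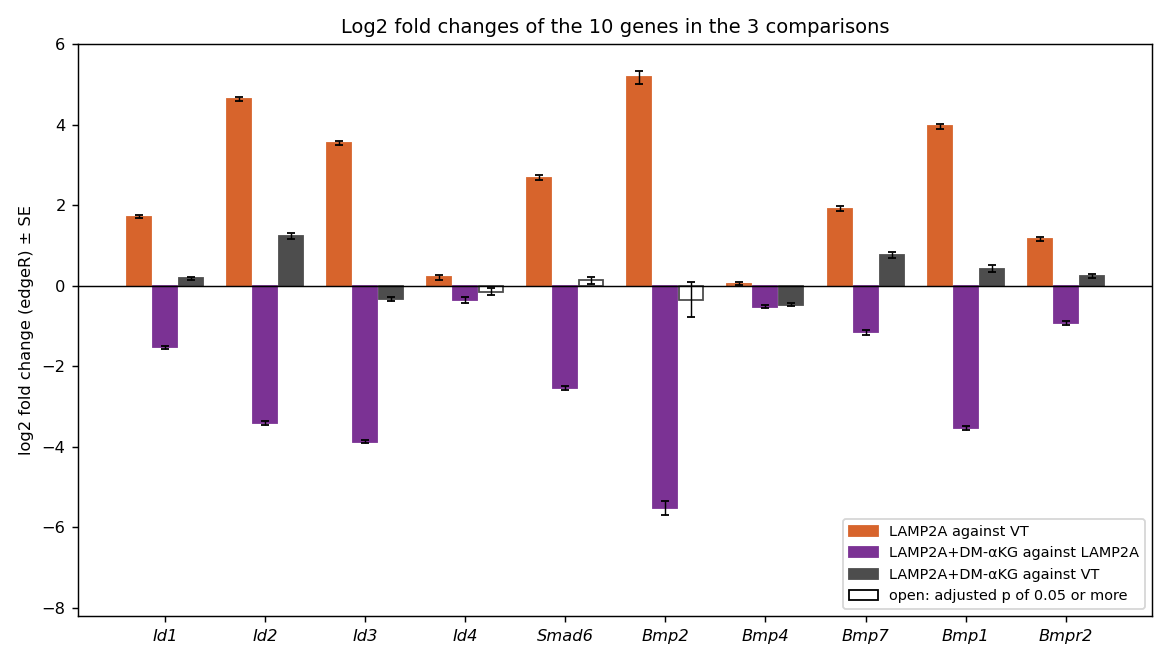
Log2 fold changes with their SE for the 10 genes (horizontal axis) in LAMP2A against VT, LAMP2A+DM-αKG against LAMP2A, and LAMP2A+DM-αKG against VT; open bars did not pass an adjusted p of 0.05. Bmp2 reaches 5.18 and -5.52 in the comparisons with LAMP2A libraries, Bmp4 0.05 and -0.52, and in the third comparison Id2, at 1.22, stands furthest from 0.

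**Figure D4:**
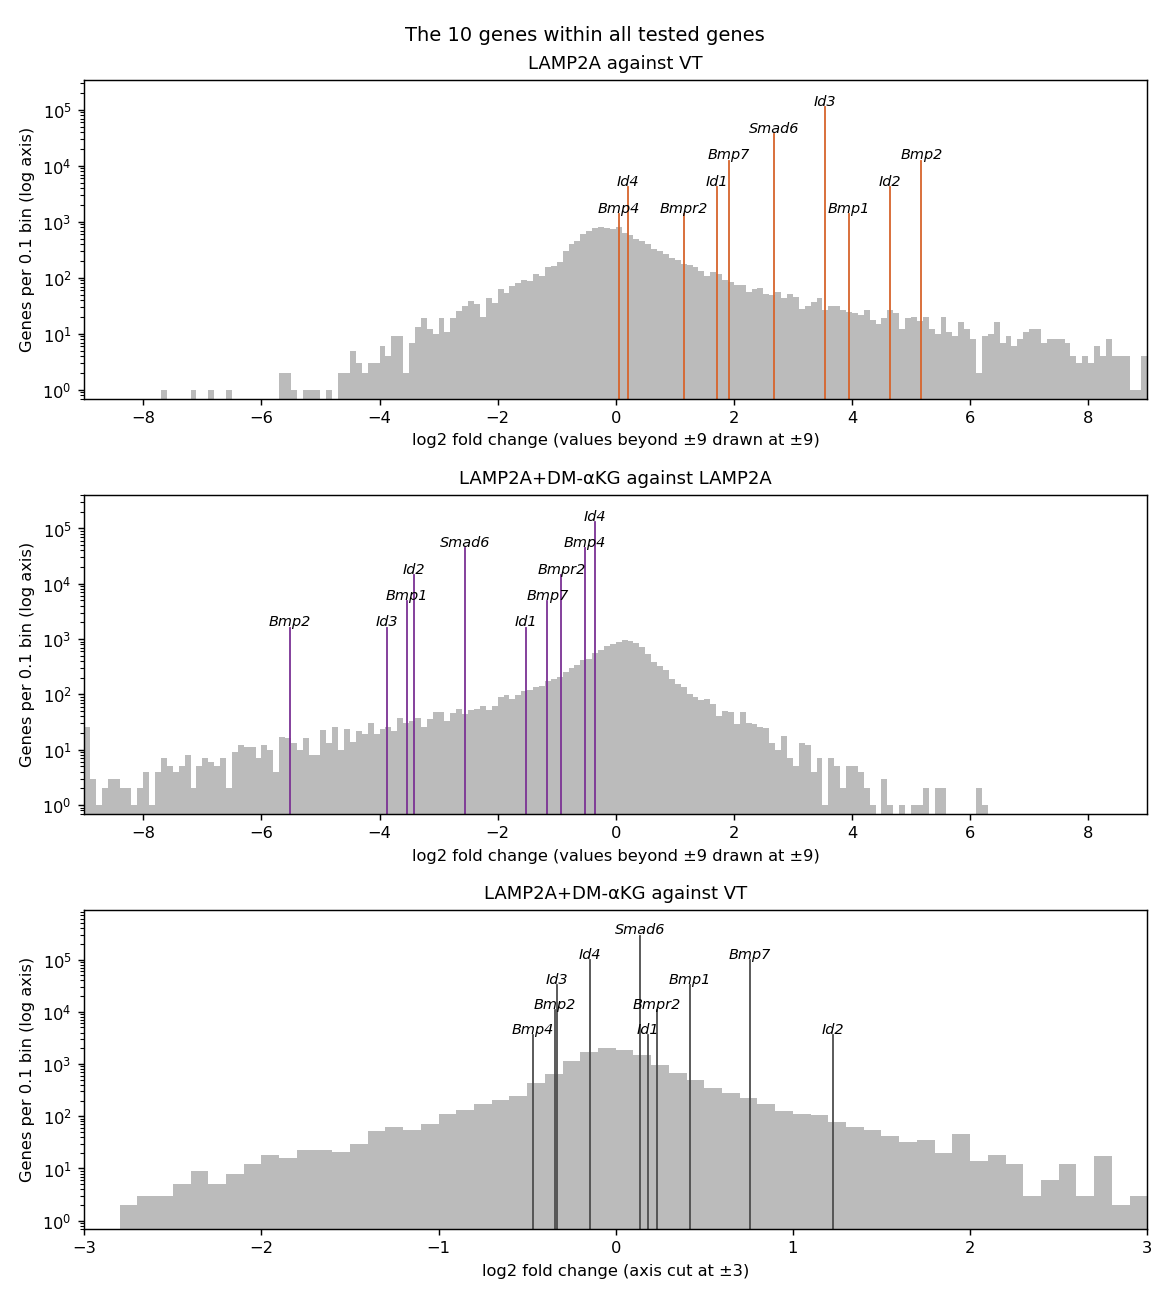
Number of tested genes per 0.1 of log2 fold change (log axis) in each comparison, with vertical lines at the 10 genes. Against VT in LAMP2A the lines run from 0.05 (Bmp4) to 5.18 (Bmp2), and with DM-αKG against LAMP2A they lie between -5.52 (Bmp2) and -0.35 (Id4), while the 14513 genes as a whole centre near 0.

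The rest of the pathway was read from lists of related genes, chosen like the 10 genes with earlier results of these data known. For their counts, the shares of all genes tested are 43% higher and 42.1% lower in LAMP2A than in VT, and 41.1% higher and 42.1% lower in LAMP2A+DM-αKG than in LAMP2A. Some list genes passed the filter on low counts only through the LAMP2A libraries, which fixed their direction, and their number is given with each list. Of 12 further BMP and GDF ligand genes, 6 were tested: 4 rose and 2 fell in LAMP2A over VT, and 2 rose and 4 fell with DM-αKG over LAMP2A. Of the 4 that were higher in LAMP2A, 2, Bmp5 and Gdf6, passed the filter only through LAMP2A, so these counts say little of the list. Gdf3, a ligand gene of pluripotent cells, was the most counted of them and went against the 10 genes: it stood at 108 ± 1.03 CPM in LAMP2A+DM-αKG, 44.5 ± 0.410 CPM in LAMP2A and 134 ± 3.66 CPM in VT (edgeR log2 fold change -1.59 in LAMP2A over VT, adjusted p = 4.35e-30, and 1.27 with DM-αKG, adjusted p = 6.01e-27). Bmp5 had no count in LAMP2A+DM-αKG or VT and 144 counts in LAMP2A, which against a floor of 3 counts over a group was at least 40.9-fold higher than in VT. Gdf6 had 3 counts in LAMP2A+DM-αKG, 77 in LAMP2A and none in VT, at least 21.9-fold higher in LAMP2A than in VT on the same floor. Bmp6 rose 3.59-fold and Bmp8b 2.45-fold in LAMP2A over VT, and with DM-αKG Bmp8b fell 2.41-fold. Bmp6 fell 1.31-fold with DM-αKG (edgeR adjusted p = 0.0141). Its libraries overlapped there, at 2.24 to 3.11 CPM in LAMP2A+DM-αKG and 2.83 to 4.30 CPM in LAMP2A. In LAMP2A+DM-αKG Bmp6 stayed 2.74-fold above VT (edgeR adjusted p = 2.6e-07).

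Of 9 other receptor and co-receptor genes, 7 rose and none fell in LAMP2A over VT (median log2 fold change 0.88), and 8 fell and 1 rose with DM-αKG (median -0.76). Bmpr1b was the 1 gene of the 9 that passed the filter only through LAMP2A. Rgma, a membrane-anchored BMP co-receptor, stood at 1.81 ± 0.273 CPM in LAMP2A+DM-αKG, 23.0 ± 0.467 CPM in LAMP2A and 1.60 ± 0.415 CPM in VT, a 14.3-fold rise in LAMP2A over VT (edgeR adjusted p = 5.12e-28). The type I receptor gene Acvr1 rose 2.54-fold in LAMP2A over VT and fell 1.83-fold with DM-αKG. Bmpr1b, another type I receptor gene, was counted little, with 12 counts in LAMP2A+DM-αKG, 82 in LAMP2A and 12 in VT, a LAMP2A to VT ratio of 5.82 (95% counting interval 3.16 to 11.7).

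Of 12 other SMAD genes and regulators, 9 rose and 2 fell in LAMP2A over VT (median log2 fold change 0.58), and 2 rose and 8 fell with DM-αKG (median -0.37). The share that passed in either direction was near the 85.1% and 83.2% of all genes, and 1 gene, Smad9, passed the filter only through LAMP2A. Smad9, a SMAD that receptors for BMPs activate, changed most: 47 counts in LAMP2A+DM-αKG, 550 in LAMP2A and 12 in VT, with a LAMP2A to VT ratio of 39.0 (95% counting interval 22.2 to 76.0). Skil, which encodes a SMAD corepressor, rose 2.11-fold in LAMP2A over VT and fell 1.55-fold with DM-αKG. Smad7, the other inhibitory SMAD gene, is set beside Smad6 here because its direction was the opposite, a choice made after its values were seen: it stood at 118 ± 2.10 CPM in LAMP2A+DM-αKG, 101 ± 2.12 CPM in LAMP2A and 134 ± 2.40 CPM in VT (edgeR log2 fold change -0.42 in LAMP2A over VT, adjusted p = 3.73e-14).

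Secreted and membrane antagonists and modulators rose in 14 of 15 tested cases in LAMP2A over VT, out of 19 listed, with none lower (median log2 fold change 2.47); 11 rose at least 2-fold, as 19.8% of all genes did. With DM-αKG 14 of the 15 fell and 1 rose (median -2.26). Of the 15, 3 passed the filter only through LAMP2A. Fstl1, which encodes a secreted glycoprotein that can bind BMP4, was the most counted of the list in LAMP2A and VT. It stood at 57.9 ± 1.19 CPM in LAMP2A+DM-αKG, 602 ± 8.36 CPM in LAMP2A and 92.5 ± 2.04 CPM in VT. In LAMP2A+DM-αKG Twsg1, at 84.4 CPM, was counted more. Nog, which encodes the BMP trap noggin, stood at 0.430 ± 0.0651 CPM in LAMP2A+DM-αKG, 8.83 ± 0.412 CPM in LAMP2A and 0.388 ± 0.139 CPM in VT, a 22.7-fold rise in LAMP2A over VT. The activin and BMP binding protein gene Fst rose 8.40-fold, the antagonist gene Nbl1 10.6-fold, and Bambi, a decoy receptor gene induced by BMP signals, 4.94-fold.

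Of 9 further genes that respond to BMP in various tissues, 8 rose at least 2-fold in LAMP2A over VT (median log2 fold change 3.47), where 19.8% of all genes did, and 7 fell with DM-αKG (median -3.39), where 42.1% of all genes did. Of the 9, 3 passed the filter only through LAMP2A, Msx1, Dlx5 and Atoh8. Dlx3, a homeobox gene named after its values were seen, did not fall past the threshold with DM-αKG: it stood at 2.85 ± 0.0977 CPM in LAMP2A+DM-αKG, 3.19 ± 0.258 CPM in LAMP2A and 0.501 ± 0.0683 CPM in VT. It was 6.37-fold higher in LAMP2A than in VT (edgeR adjusted p = 4.21e-15) and 5.69-fold higher in LAMP2A+DM-αKG than in VT (edgeR adjusted p = 6.5e-13), while LAMP2A+DM-αKG and LAMP2A differed by a log2 fold change of -0.16 (edgeR adjusted p = 0.22). Msx2, a homeobox gene, stood at 1.53 ± 0.0444 CPM in LAMP2A+DM-αKG, 33.1 ± 0.610 CPM in LAMP2A and 0.858 ± 0.348 CPM in VT. Its relative Msx1 had 28 counts in LAMP2A+DM-αKG, 923 in LAMP2A and 20 in VT, a LAMP2A to VT ratio of 39.3 (95% counting interval 25.3 to 64.7). Among other transcription factor genes, Gata2 rose 6.67-fold, Tbx20 3.67-fold, Nkx2-5 11.1-fold and Atoh8 12.5-fold in LAMP2A over VT. With DM-αKG Gata2 fell 10.5-fold, Tbx20 2.58-fold, Nkx2-5 11.0-fold and Atoh8 6.44-fold. Several of these genes are also lineage genes of mesoderm or trophoblast.

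The E protein genes Tcf3, Tcf4 and Tcf12, whose products ID proteins bind, all rose in LAMP2A over VT, Tcf12 by 2.36-fold, and all fell with DM-αKG, Tcf12 by 2.11-fold. Median log2 fold changes of this list were 0.65 and -0.56. Over all lists, a median with the genes at 0 counts set to their bound was the same as the fitted one.

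**Figure D5:**
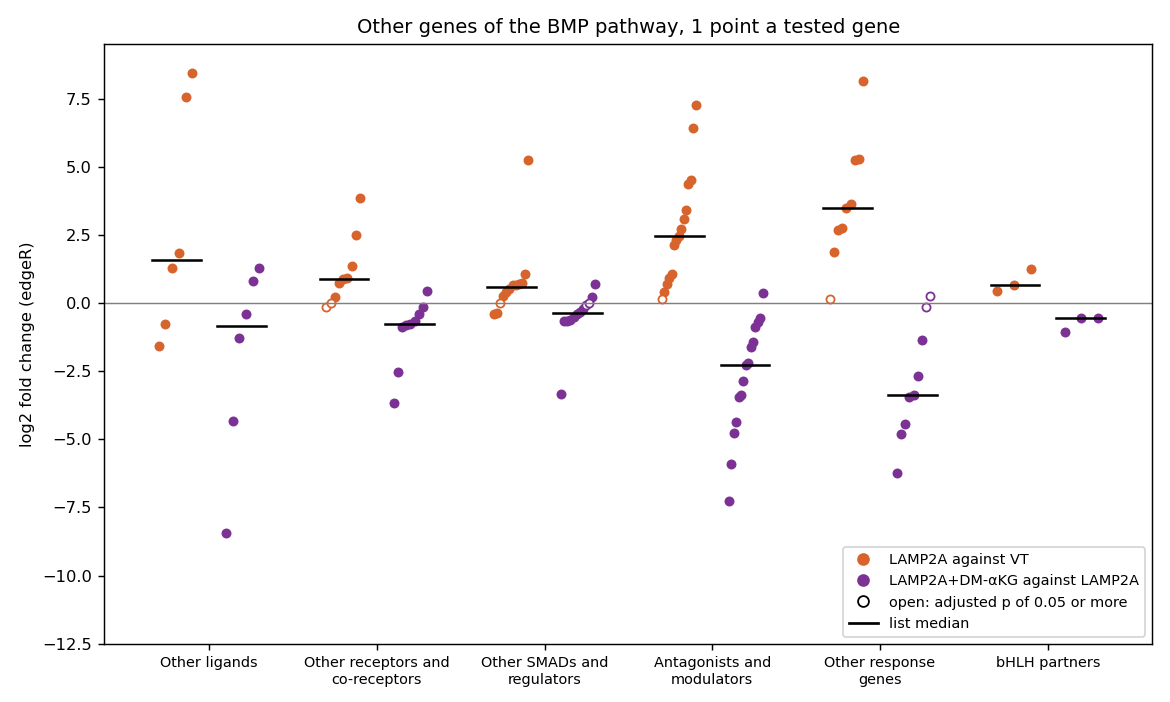
Log2 fold change of each tested gene (points) in 6 lists of the BMP pathway, in LAMP2A against VT and in LAMP2A+DM-αKG against LAMP2A, with list medians as bars and open points for genes that did not pass. Fitted values of genes without a count in a group, such as Bmp5, depend on the prior count. Medians for the response genes are 3.47 in LAMP2A against VT and -3.39 with DM-αKG, with 3 of the 9 genes tested only through their LAMP2A counts.

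Profiles closest to a given gene over the 9 libraries were found by the Euclidean distance between log2 CPM centred on each gene's mean. Candidates were 10402 other tested genes that averaged 5 CPM or more, without predicted and clone symbols (Gm, Rik, AC, AL and CT numbers). Closest to Id1 were Tubb6 (distance 0.132), Micall1 (0.147) and Rbbp7 (0.150). Closest to Id2 were Jun (0.256), Lamb3 (0.486) and Podxl (0.502). Closest to Id3 were Tmem132c (0.270), Irgm2 (0.451) and Serpinb9b (0.480), and closest to Bmp4 were Glul (0.117), Klhl7 (0.118) and the DNA methyltransferase gene Dnmt3b (0.141). Jun, a subunit gene of the AP-1 transcription factor, stood at 11.5 ± 0.210 CPM in LAMP2A+DM-αKG, 128 ± 3.23 CPM in LAMP2A and 5.37 ± 0.240 CPM in VT. Like Id2 it remained above VT in LAMP2A+DM-αKG (2.13-fold, edgeR adjusted p = 3.99e-14). Jun was picked by its closeness to Id2 over these same libraries, so that likeness is no separate result. Glul, the glutamine synthetase gene, stood at 213 ± 1.79 CPM in LAMP2A+DM-αKG, 304 ± 5.63 CPM in LAMP2A and 298 ± 8.28 CPM in VT.

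Markers of several other cell types moved with the 10 genes, and neural markers moved both ways. For each count of markers in LAMP2A over VT, 43% of all genes tested were higher and 42.1% were lower. Of 8 smooth muscle and mesoderm markers (Tagln, Acta2, Cnn1, Myh11, T, Mesp1, Hand2 and Twist1), 7 were tested and all 7 rose in LAMP2A over VT. All 8 summed to 6.20 to 7.79 CPM in LAMP2A+DM-αKG, 2006 to 2033 CPM in LAMP2A and 4.65 to 5.46 CPM in VT. Tagln at 1402 CPM and Acta2 at 485 CPM made up most of the LAMP2A sum. T was low, at 0.438 CPM in LAMP2A+DM-αKG, 0.525 CPM in LAMP2A and 0.307 CPM in VT. It did not pass with DM-αKG (edgeR adjusted p = 0.41). Mesp1, not tested, had 6 counts in LAMP2A+DM-αKG, 4 in LAMP2A and 12 in VT. Of 8 trophoblast markers 7 were tested and rose, with sums of 85.9 to 90.7 CPM in LAMP2A+DM-αKG, 1213 to 1230.2 CPM in LAMP2A and 66.5 to 71.9 CPM in VT. The keratin genes Krt8 at 619 CPM and Krt18 at 461 CPM made up most of the LAMP2A sum. Tfap2c rose least, 1.32-fold in LAMP2A over VT. Elf5, not tested, was nearly absent, with 2 counts over the LAMP2A libraries and no count in LAMP2A+DM-αKG or VT. Primitive endoderm markers rose in 9 of 10 cases and Sox7 fell; they summed to 59.9 to 63.3 CPM in LAMP2A+DM-αKG, 471 to 481 CPM in LAMP2A and 40.3 to 41.2 CPM in VT, with Afp at 0 in VT. Fibroblast and feeder markers rose in 6 of 7 tested cases of 8 listed, with sums of 6.997 to 10.1 CPM in LAMP2A+DM-αKG, 125 to 127 CPM in LAMP2A and 8.52 to 9.62 CPM in VT, and Lum at 0 in VT. Of 6 neural markers 3 rose and 3, Tubb3, Map2 and Neurod1, fell. All 6 summed to 153 to 155 CPM in LAMP2A+DM-αKG, 336 to 347 CPM in LAMP2A and 129.7 to 135 CPM in VT. Nes at 264 CPM made up most of the LAMP2A sum. With DM-αKG over LAMP2A, 6 of 7 smooth muscle and mesoderm, 7 of 7 trophoblast, 9 of 10 primitive endoderm and 7 of 7 fibroblast and feeder markers fell, where 42.1% of all genes did, and of the 6 neural markers 3 rose and 3 fell. Of these tested markers, 4 of smooth muscle and mesoderm, 3 of trophoblast, 2 of primitive endoderm and 4 of fibroblasts passed the filter only through LAMP2A. The part of these markers, and of the lower Lamp2 level in LAMP2A+DM-αKG, in the results for the 10 genes was not tested. In bulk RNA, a change in the share of cells of a type and a change in RNA per cell cannot be told apart.

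The authors' deposited tables of their own comparisons gave the same signs for all 10 genes. In the authors' deposited table of LAMP2A against VT, Id2 had a log2 fold change of 4.64, Id3 of 3.54 and Bmp2 of 5.20, and Bmp4 did not pass (log2 fold change 0.05, adjusted p = 0.273). In the authors' deposited table of LAMP2A+DM-αKG against LAMP2A the values were -3.41 for Id2, -3.87 for Id3, -5.55 for Bmp2 and -0.52 for Bmp4. Id4 passed in the authors' deposited table of LAMP2A against VT with an adjusted p of 0.0451, close to the threshold.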

How the data were processed

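RNA was sequenced from 9 libraries, 3 a group, grouped by sample title; per the labels' protocols libraries were made with a stranded TruSeq mRNA kit. The authors deposited raw counts per gene symbol, and the submitters' processing notes list STAR 2.7.1, HTSeq 0.11.2 and mm10. For annotation and strand setting, the sources used here give nothing, and reads of overlapping genes are less certain. Per the file headers, the authors' DESeq2 tables hold a log2 fold change and its error, a test score and p-values for each gene. Here counts were fitted with edgeR 4.0.16 in R 4.3.3 (TMM factors, 0.991 to 1.01; filterByExpr; glmQLFit, robust; glmQLFTest), all 9 libraries in 1 model with 6 residual degrees of freedom and Benjamini-Hochberg adjustment over all 14513 genes tested. Genes passed at an adjusted p under 0.05. Each SE was derived as |log2 fold change| divided by √F. The script for the fit was tested on simulated data. DESeq2 1.42.0 was an alternative. Chi-square per degree of freedom between libraries of a group was 1.18 to 5.79, so none were merged. Log2 CPM for profile distances used a prior count of 1. Named were the 10 genes, Lamp2 and ES cell markers, the nearest profiles of 4 genes, and, from each pathway list, genes that passed at 2-fold or more in either comparison with LAMP2A, up to the 6 with the smallest p. One gene named by this rule is not reported here. The 10 genes and the lists were chosen with earlier results of these data known.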

Additional observations from a re-analysis of the deposited data

How the results depend on the processing

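Wherever it could be tested, each of the 10 genes kept the direction of its log2 fold change in all 3 comparisons under DESeq2, RLE factors, no filter on low counts, a minimum mean of 5 CPM, fits of the 2 groups compared alone, a replicate block and the omission of each library in turn. The side of the threshold changed for Bmp4 in LAMP2A against VT with the 5 CPM minimum (log2 fold change 0.11) and for Smad6 in LAMP2A+DM-αKG against VT without VT replicate 2 (0.23); the cause was not tested. Bmp2 fell under the 5 CPM minimum, and under the filter when LAMP2A+DM-αKG and VT were fitted alone. With the 5 CPM minimum, which tests fewer genes, the genes changed at least 2-fold numbered 2146 in LAMP2A against VT, 1829 in LAMP2A+DM-αKG against LAMP2A and 330 in LAMP2A+DM-αKG against VT, in place of 4271, 3723 and 951. Same-numbered libraries did not deviate together (correlations of -0.03 to 0.01). No pairing by number was thus seen, but one with a small effect could be missed. With the replicate block 12341, 12065 and 8462 genes passed in place of 12355, 12081 and 8517, and 9, 10 and 7 of the 10 genes. Depth limits Bmp2, with 20 counts in LAMP2A+DM-αKG and 25 in VT.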
